A study of Mus musculus with 6 samples.

Results

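The regions described here were pieces of RNA from mouse left atrium that overlapped exons of protein-coding genes, in libraries from which polyadenylated RNA had been removed. They were chosen by position alone: a feature of the authors' deposited table was taken when it overlapped, on its listed strand, at least 1 base of an exon of a protein-coding gene in GENCODE M21 and no exon of a long noncoding or small RNA gene on that strand. This gave 674 of 34518 features, or 1.95%, over exons of 534 genes. The study asked about gene networks of FOG2 and TBX5 in the rhythm of the heart. The animals were adult mice of the outbred CD1 stock, and each of 2 groups gave 3 libraries of left atrial RNA. In the first group (FOG2_OE) FOG2 was overexpressed. FOG2 is encoded by Zfpm2 and is a cofactor of GATA transcription factors. The other group was wild type (WT), and animals of both groups had been reared without doxycycline for 1 week before harvest. The harvest protocol calls the animals DTG and NTG without spelling out either term. The promoter that drives FOG2 and any pooling of animals are not given in the sources used here.

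Most messenger RNAs are cut at the end of the gene, downstream of a polyadenylation signal (AATAAA or its common variant ATTAAA in the DNA), and then receive a poly(A) tail. RNA without a tail includes unspliced and uncut transcripts, RNA that runs on past the cutting site, and fragments left by decay. Replication-dependent histone messengers are the known exception among coding RNAs, since they end in a short stem-loop in place of a tail. RNA polymerase II is known to continue past the cutting site before it is released, so that RNA from the flank of a gene can be found when tails are not selected for.

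The 674 features lay mostly at the 3′ side of genes and were rarely coding sequence. Of all the bases they spanned, 2.46% were coding sequence, 19.1% 3′ UTR, 0.735% 5′ UTR, 2.20% exons of noncoding isoforms, 30.9% introns and 44.6% lay outside the gene. Inside the gene were 328 features, 300 ran past the gene end, 42 ran past the gene start and 4 past both ends. A 3′ UTR was touched by 540 features and coding sequence by 109, while 228 lay wholly within a 3′ UTR. The spans ran from 102 to 95569 bases with a median of 932, and the median overlap with exons was 318 bases. Features with a coding exon within 20 bases but not under them numbered 66. Their median log2 ratio of FOG2_OE over WT was -0.06 (-2.99 to 1.79), with 0 called at an adjusted p under 0.05, while 11 features were included on fewer than 20 exon bases and 1 of those was called.

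**Figure D1:**
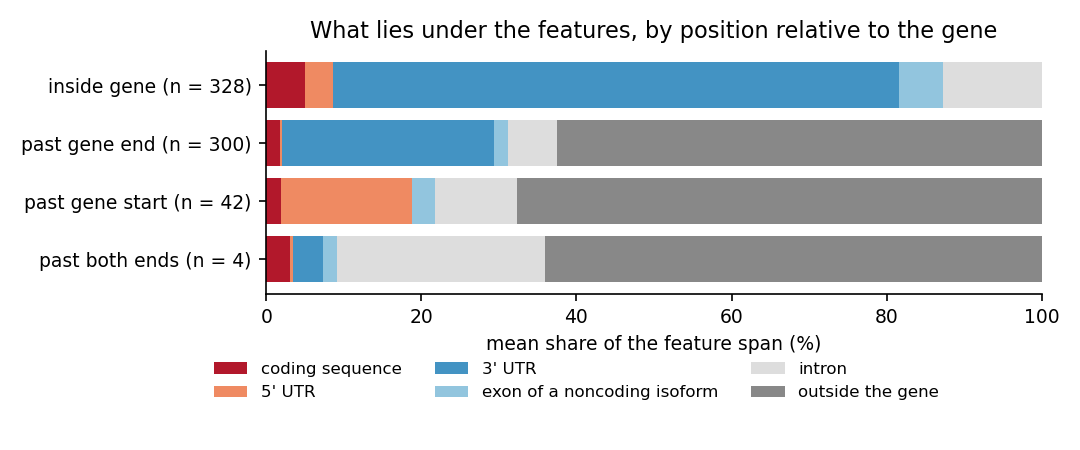
Mean share of the feature span, in percent, that lay over coding sequence, 5′ UTR, 3′ UTR, noncoding isoform exons, introns or outside the gene, for features grouped by position relative to the gene. Features inside a gene were on average 73.0% 3′ UTR, and those past the gene end were on average 62.6% flank and 27.3% 3′ UTR.

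The last 30 bases of the annotated gene end are shown for 8 of the 10 called features that covered a gene end, because this is where a polyadenylation signal would stand. They were read from GENCODE M21 transcripts (GRCm38) in the direction of the gene, and capitals mark AATAAA or ATTAAA.
Hcn4 (chr9:58863146-58863175, plus strand): ttttatttaAATAAAaaaaattacagcaaa
Armh4 (chr14:49675952-49675981, minus strand): catacaAATAAAaaaaaaagcaaaacattg
Slfn9 (chr11:82978390-82978419, minus strand): aaatatccAATAAAaaagaaagaaaacata
Sln (chr9:53854531-53854560, plus strand): tAATAAAaggtgggaggcaccagtggaatg
Rftn1 (chr17:49992257-49992286, minus strand): tgtgagAATAAActtatcaggagtagttcc
Lsmem1 (chr12:40175493-40175522, minus strand): atttctaATTAAAataactgagaacaccct
Gpc1 (chr1:92860750-92860779, plus strand): agcccagattcaaagaatccctgctcagcc
Gm10570 (chr4:130308162-130308191, minus strand): gctcggagaggaatgacgcggtcgccgtaa
The windows of Gpc1 and Gm10570 held neither signal, and those of Adamts19 and Slc25a46 are not printed. Of all 10 genes whose end a called feature covered, 6 had AATAAA and 1 only ATTAAA. Among the 305 genes whose end was covered by a feature, 38.7% had AATAAA and a further 11.5% only ATTAAA in this window on the strand of the transcript. The values were 52.0% and 13.1% among the 229 genes whose features did not cover the end, and 50.7% and 11.4% among all 21889 protein-coding genes with such a window. A window without these letters says nothing about where transcripts of the gene are cut.

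Before the features are compared, the overexpression can be checked only indirectly, since 0 of the 674 features lay over a Zfpm2 exon. A feature listed on the opposite strand across Zfpm2 (MSTRG.29831, chr15:40752896-41103616) stood at 416 CPM (counts per 1000000 reads of the effective library) in FOG2_OE and 0.484 CPM in WT. Its log2 ratio in the authors' deposited table was 9.74 (implied SE 0.31, adjusted p = 2.4e-117). The TruSeq kit named for the libraries keeps no strand, yet overlapping features listed on opposite strands could differ. Of 41 features with such a partner, the log2 ratios shared a sign in 18. Near Hcn4, the scarce MSTRG.85262 (plus strand) had 0.527 CPM in FOG2_OE and 0.00868 CPM in WT. MSTRG.85263 (minus strand), within its span, had 0.0544 CPM in FOG2_OE and 0.0520 CPM in WT. Whether strand was kept was not tested, so RNA from Zfpm2 and from its antisense strand is not told apart here. To the same degree, the origin is uncertain for the 139 of the 674 features that also lay over an exon on the opposite strand.

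The 6 columns of the deposited table that carry the samples' names held fitted values of the authors' model. For Hcn4 (MSTRG.85269) these were 416, 378 and 443 in FOG2_OE replicates 1 to 3, against 9.83, 10.8 and 11.4 in WT replicates 1 to 3. Within a group they differed only by library size, so they show no spread between animals, and 1 CPM value per group holds all that they give. Levels are therefore given as CPM of the effective library. The log2 ratio is the log2 fold change, FOG2_OE over WT, with a standard error implied by the authors' likelihood ratio (SE). A feature is called when its adjusted p is under 0.05 in the authors' deposited table (likelihood ratio test, adjusted over 34518 features). Effective libraries were 72464183 to 84907173 reads in FOG2_OE and 71180401 to 82251201 reads in WT. The limit set by 3 counts over a group lay at 0.0127 CPM for FOG2_OE, with 6 features at or under it, and at 0.0129 CPM for WT, with 3, counting error only.

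Together the 674 features held 2317 CPM in FOG2_OE, against 2403 CPM in WT. These sums count whole spans, which were mostly intron and flank. In FOG2_OE, 8 were higher and 10 lower by the authors' deposited table, or 2.67% called. Over all features 5.81% were called, 1.16% higher and 4.65% lower. Their median log2 ratio was -0.12 (quartiles -0.41 and 0.21), beside -0.21 over all features. With the median ratio of all features centred at 1, the split became 11 higher and 7 lower and the median 0.09, so the sign of the median rests on the scale between the groups. The lower calls lost with that scale were Sln, Rftn1 (adjusted p = 0.136) and 1 of Adh6b (0.0821). In bulk tissue, fewer cells of a type and less RNA per cell cannot be told apart.

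The features were also more abundant than the rest of the table, which bears on their precision. Their median span was 932 bases, against 238 over all features. Their median fitted count, which is not per length, was 47.9, against 7.22 over all features, and 35.6% lay under 20 fitted counts, against 76.3%. A log2 ratio beyond 1 in either direction was seen in 13.9% of them and in 33.3% of all features. Among features of at least 20 fitted counts the shares were 6.68% and 16.2%. At that abundance 6 of 434 features were called higher and 7 lower, beside 1.76% and 7.24% of all such features.

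**Figure D2:**
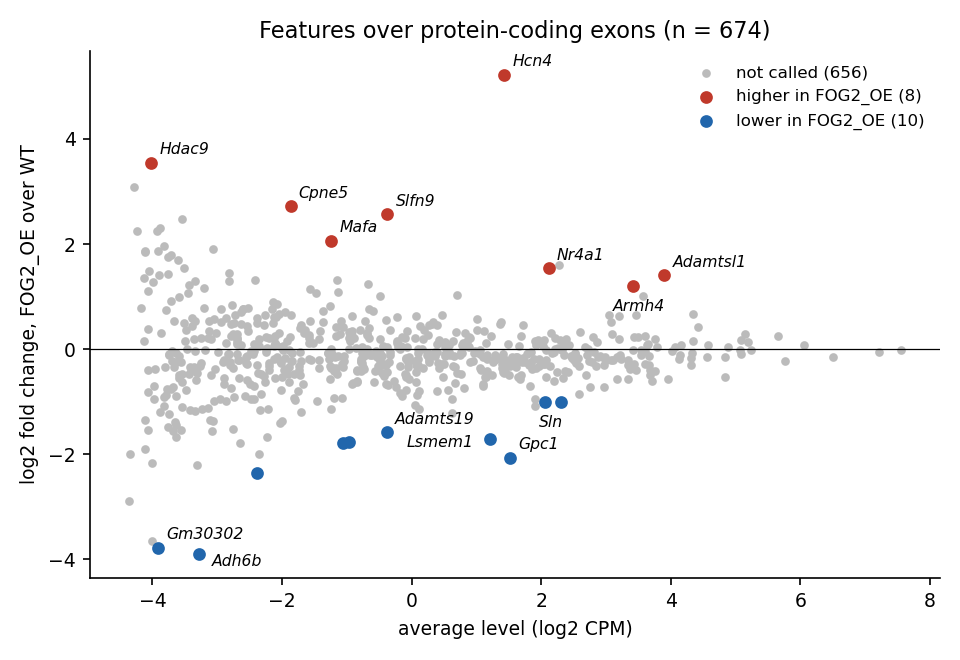
Log2 ratio of FOG2_OE over WT against the average level in log2 CPM for the 674 features, 1 point each, with called features in colour (8 higher, 10 lower). The widest scatter lies at low levels, and Hcn4 stands apart at 5.22.

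Calls fell on both flanks and inside genes. Features past the gene end gave 3 higher and 7 lower calls of 300, with a median log2 ratio of -0.14 in the authors' deposited table. Those inside the gene gave 4 higher and 3 lower of 328, with a median of -0.10, and those past the gene start 1 higher and 0 lower of 42, with a median of -0.06. Features that touched coding sequence gave 0 higher and 4 lower calls of 109. The lower calls were 3.67% of these features, while 4.65% of all features were called lower and 1.16% higher. The counts therefore do not set features with coding sequence apart. The median fitted count was 133 past the gene end and 19.0 inside the gene, so the classes were not measured with like precision (median SE 0.38 and 0.52), and no difference between them was tested.

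Genes of cardiac rhythm held the most strongly changed feature. Hcn4 encodes the main pacemaker channel, which carries the hyperpolarization-activated current of the sinus node. Its feature (MSTRG.85269, chr9:58861118-58864170) covered 2058 bases of 3′ UTR and 995 bases past the gene end. It stood at 5.22 CPM in FOG2_OE and 0.138 CPM in WT, and the authors' deposited table gave a log2 ratio of 5.22 (SE 0.46, adjusted p = 8.1e-23). Sln encodes sarcolipin, a small inhibitor of the SERCA calcium pump that is typical of atrial muscle. Its feature (MSTRG.84937, chr9:53854326-53854674) covered 235 bases of 3′ UTR and 114 bases of flank. It was called lower, at 2.76 CPM in FOG2_OE and 5.58 CPM in WT, with a log2 ratio of -1.01 in the authors' deposited table (SE 0.33, adjusted p = 0.040). The call was lost when the median ratio was centred at 1 (adjusted p = 0.159).

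Of the remaining features of the rhythm and calcium list, neither was called. Kcnj11, the pore of the ATP-sensitive potassium channel, stood at 50.4 CPM in FOG2_OE and 58.9 CPM in WT. Gja1, the gap junction protein connexin 43, stood at a log2 ratio of 1.36 with adjusted p = 0.593 by the authors' deposited table. The list thus had 1 higher and 1 lower of 4 features, from 4 of its 38 genes. In the pacemaker and conduction list both of 2 features were higher, Hcn4 and Cpne5, from 2 of 15 genes, and Hcn4 stands in both lists. Over all features 1.16% were higher. Both lists were drawn up with earlier results of these data known, so these calls are no separate support for a theme. Cpne5 encodes copine 5, a calcium-dependent membrane-binding protein. Its feature (MSTRG.36781, chr17:29238156-29238929) overlapped only 12 bases of 5′ UTR and lay otherwise before the gene start. It had 0.434 CPM in FOG2_OE and 0.0643 CPM in WT, and a log2 ratio of 2.72 in the authors' deposited table (SE 0.61, adjusted p = 3.2e-04). A listed feature on the opposite strand (MSTRG.36782) overlapped it.

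The other 11 lists held few features and 1 call. The atrial and ventricular list had Sln alone, from 1 of 20 genes, so these features check the tissue label no further. Among cardiac transcription factors 0 of 3 features were called. Tbx2, a repressor of chamber genes, had 0.230 CPM in FOG2_OE and 0.0918 CPM in WT (adjusted p = 0.197 in the authors' deposited table). Tbx20, a T-box factor of heart muscle, had 4.09 CPM in FOG2_OE and 5.98 CPM in WT (adjusted p = 0.434), and Hand2, a basic helix-loop-helix factor, had a log2 ratio of 0.06, again in the authors' deposited table. Myom1 of the sarcomere list (-0.19) and Junb of the stress list (1.09, adjusted p = 0.356) were not called in the authors' deposited table. No feature lay over the genes of the matrix, energy, cell cycle, endothelial, immune, smooth muscle and epicardial, adipose and neural lists. In all, 14 of 319 listed genes had a feature.

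Features over genes of replication-dependent histones, whose messengers normally lack a tail, did not pass the test. Of 71 histone genes in the list, which also holds variants such as H3f3a, 4 had features, 5 in number, and 0 were called. Over all features 5.81% were called, so 0 of 5 decides little. Transcripts of these 4 genes each hold the stem-loop, shown here because it is the known end of the processed messenger. It was searched on the strand of the transcript as a stem of 6 bases that begins with GG, a loop of TTTN and the reverse complement of the stem. Of 21951 protein-coding genes, 0.328% had such a hairpin in a transcript.
Histone stem-loop of Hist1h2bh (chr13:23542928-23542943, minus strand): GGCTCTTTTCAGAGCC
The same letters stood in Hist1h1d, Hist1h2ac and Hist2h3c2. None of the 5 features covered it: they began 10 bases downstream of it in Hist2h3c2, 171 in Hist1h2bh, 254 and 1115 in Hist1h2ac and 559 in Hist1h1d. Hist2h3c2 had 2.02 CPM in FOG2_OE and 2.23 CPM in WT. For the rest, log2 ratios in the authors' deposited table were -1.17 for Hist1h1d (adjusted p = 0.318), -0.31 for Hist1h2bh and 0.37 and 0.59 for Hist1h2ac. Many histone genes have near-identical coding sequence. The 5 features lay downstream of the stem-loop, and whether their reads were shared between genes was not tested.

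The other 6 higher features lay in Nr4a1, Mafa, Hdac9, Adamtsl1, Armh4 and Slfn9. Nr4a1 encodes an orphan nuclear receptor induced as an immediate early gene. Its feature (MSTRG.32171, chr15:101254281-101258601), 190 bases of 5′ UTR and 4131 of intron, had 6.43 CPM in FOG2_OE and 2.21 CPM in WT. Its log2 ratio in the authors' deposited table was 1.54 (SE 0.37, adjusted p = 1.8e-03). Mafa encodes a basic leucine zipper factor known as an activator of the insulin gene. Its feature (MSTRG.30550, chr15:75745542-75746813), wholly 3′ UTR, had 0.645 CPM in FOG2_OE and 0.153 CPM in WT, with a log2 ratio of 2.06 in the authors' deposited table (SE 0.50, adjusted p = 2.0e-03). A second Mafa feature (MSTRG.30552) was not called, at a log2 ratio of 2.47 with adjusted p = 0.113 by the authors' deposited table. Hdac9 encodes a class IIa histone deacetylase. Its feature (MSTRG.20541, chr12:34906656-34906854) covered 199 bases of a retained-intron isoform and rested on 16 fitted counts in FOG2_OE and 1 in WT, a ratio of 15.6 (95% interval 2.43 to 656, counting error only), with adjusted p = 0.049 in the authors' deposited table.

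By CPM per feature, not per length, the highest of the higher features lay in Adamtsl1 and Armh4. Adamtsl1 encodes a secreted ADAMTS-like glycoprotein of the matrix that lacks the protease domain. Its feature (MSTRG.59202, chr4:85777011-85783161) lay inside the gene, with 1425 bases of a noncoding isoform and 4726 of intron. It had 21.7 CPM in FOG2_OE and 8.21 CPM in WT, and a log2 ratio of 1.40 in the authors' deposited table (SE 0.33, adjusted p = 1.6e-03). The Armh4 feature (MSTRG.27025, chr14:49673736-49681360) covered 5409 bases of 3′ UTR and 2216 of flank, with 14.9 CPM in FOG2_OE and 6.51 CPM in WT. Its log2 ratio was 1.20 in the authors' deposited table (SE 0.29, adjusted p = 1.7e-03). Slfn9, of the schlafen family, was higher on 558 bases of 3′ UTR and 289 of flank (MSTRG.15140, chr11:82978101-82978947), at 1.27 CPM in FOG2_OE and 0.213 CPM in WT. By the authors' deposited table its log2 ratio was 2.57 (SE 0.73, adjusted p = 0.018), and schlafen genes are close paralogs whose reads may be shared.

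**Figure D3:**
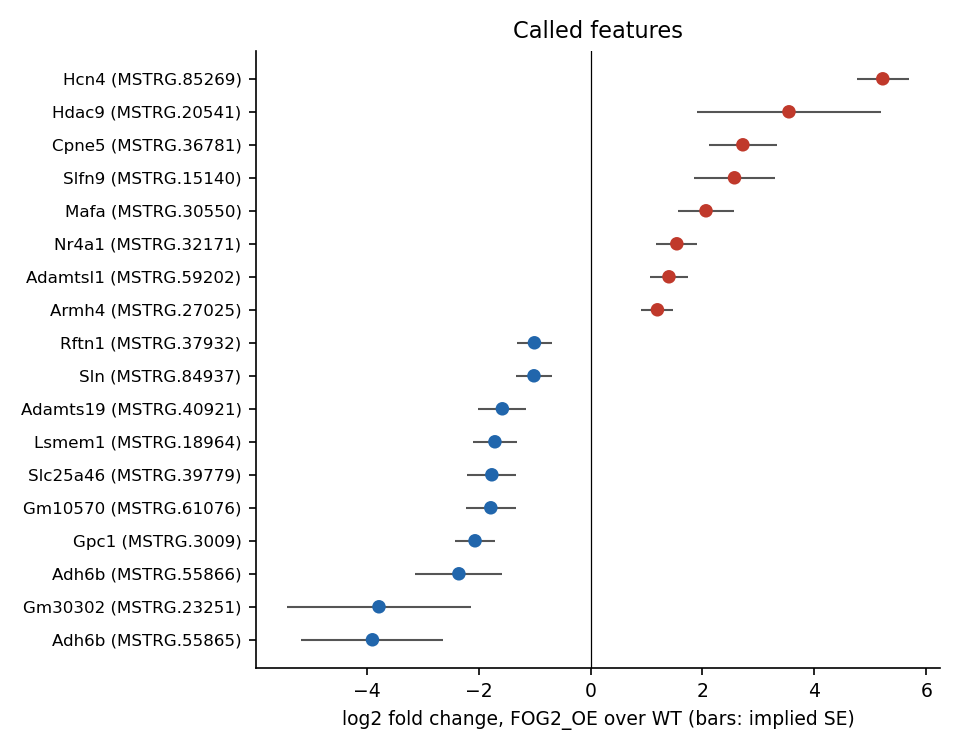
Log2 ratio of FOG2_OE over WT for the 18 called features, each bar 1 implied SE to either side of the point. Hcn4 is the highest at 5.22 and an Adh6b feature the lowest at -3.90.

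Besides Sln, the lower features with the most CPM per feature lay in Rftn1, Gpc1 and Lsmem1. Gpc1 encodes glypican 1, a heparan sulfate proteoglycan of the cell surface. Its feature (MSTRG.3009, chr1:92860548-92862486) covered 232 bases of 3′ UTR and 1707 of flank, also under an exon of Ankmy1 on the opposite strand. It had 1.10 CPM in FOG2_OE and 4.61 CPM in WT, and a log2 ratio of -2.07 in the authors' deposited table (SE 0.37, adjusted p = 4.8e-06). Rftn1 encodes raftlin, a lipid raft protein. Its feature (MSTRG.37932, chr17:49985333-49993207) was mostly flank, with 951 bases of 3′ UTR, and had 3.30 CPM in FOG2_OE and 6.61 CPM in WT (SE 0.31 on the log2 scale, adjusted p = 0.030 in the authors' deposited table). Lsmem1, a membrane protein gene, had a feature (MSTRG.18964, chr12:40170520-40175948) at 1.07 CPM in FOG2_OE and 3.52 CPM in WT, with a log2 ratio of -1.71 in the authors' deposited table (SE 0.40, adjusted p = 1.3e-03).

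The remaining lower features were scarce. Of 3 features of Adh6b, an alcohol dehydrogenase gene with close paralogs, 2 were lower. MSTRG.55865 (chr3:138358143-138358405) rested on 2 fitted counts in FOG2_OE and 34 in WT, and WT over FOG2_OE was 17.4 (95% interval 4.46 to 149, counting error only). MSTRG.55866 (chr3:138358673-138358803) had 0.0535 CPM in FOG2_OE and 0.280 CPM in WT. Adjusted p was 6.8e-03 and 0.042 for these features in the authors' deposited table, and 0.502 for the third, MSTRG.55871. Adamts19, a secreted metalloprotease gene, had 0.372 CPM in FOG2_OE and 1.11 CPM in WT (MSTRG.40921, chr18:59053749-59055570). Slc25a46, of the mitochondrial carrier family, had 0.222 CPM in FOG2_OE and 0.759 CPM in WT (MSTRG.39779, chr18:31556035-31558629). Log2 ratios in the authors' deposited table were -1.58 (SE 0.43, adjusted p = 8.4e-03) for Adamts19 and -1.76 (SE 0.44, adjusted p = 2.4e-03) for Slc25a46. Gm10570 (MSTRG.61076) had 0.205 CPM in FOG2_OE and 0.711 CPM in WT, with adjusted p = 2.4e-03 in the authors' deposited table. Gm30302 (MSTRG.23251) rested on 1 fitted count in FOG2_OE and 18 in WT (adjusted p = 0.028 in the authors' deposited table).

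The 12 most abundant features, by CPM per feature, were not called. With 5.81% called over all features, the lack of calls among 12 decides little. Hipk2, a nuclear protein kinase gene, led with 187 CPM in FOG2_OE and 190 CPM in WT over 3300 bases of 3′ UTR and 7001 of flank (MSTRG.69003), and its log2 ratio was -0.02 (SE 0.25) in the authors' deposited table. Per length this was 18.2 CPM per kb of span in FOG2_OE and 18.4 in WT, the highest of the 12. Selenot, which encodes a selenoprotein of the endoplasmic reticulum, had 145 CPM in FOG2_OE and 151 CPM in WT. Dyrk1b, a kinase gene, had 86.5 CPM in FOG2_OE and 95.5 CPM in WT. Sntb2, a syntrophin of the dystrophin complex, had 68.3 CPM in FOG2_OE and 65.2 CPM in WT. Adrb1, the main cardiac beta-adrenergic receptor, had 2 features at 38.4 and 38.9 CPM in FOG2_OE against 34.9 and 31.8 CPM in WT. St3gal1, a sialyltransferase gene, had 55.1 CPM in FOG2_OE and 46.3 CPM in WT, spread over a long span at 0.745 CPM per kb in FOG2_OE and 0.627 CPM per kb in WT. Zfp335, a zinc finger gene, had 36.2 CPM in FOG2_OE and 32.1 CPM in WT. Etv3, an ETS factor gene, had 32.9 CPM in FOG2_OE and 35.2 CPM in WT. Rnf103, a ubiquitin ligase gene, had 37.9 CPM in FOG2_OE and 38.1 CPM in WT, and Fundc1, a mitophagy receptor gene, had 33.5 CPM in FOG2_OE and 33.8 CPM in WT. With Kcnj11, adjusted p values of the 12 ran from 0.518 to 0.990 by the authors' deposited table, and log2 ratios from -0.22 to 0.29. Of these 12 features 11 ran past the gene end.

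Several genes were covered in pieces. Of 78 genes with at least 2 features, 51 had all features on 1 side of 0, 32 of them under 0 and 19 over 0, and 27 were mixed. D10Wsu102e (gene at chr10:83360221-83488505) had 18 features, all wholly within its 3′ UTR, with 5.03 CPM in FOG2_OE and 6.45 CPM in WT in sum. Its log2 ratios ran from -1.90 to 0.35 with a median of -0.54, and 0 were called (lowest adjusted p 0.210, from the authors' deposited table). BC004004 had 8 such features, in sum 4.33 CPM in FOG2_OE and 5.56 CPM in WT, with a median of -0.61 and a lowest adjusted p of 0.0627 by the authors' deposited table. Prep, the prolyl endopeptidase gene, had 7, at 3.77 CPM in FOG2_OE and 3.47 CPM in WT. Ccdc187 had 6 and Ebpl 5, with medians of 0.55 and -0.63 and 0 called. Pieces of 1 gene share their source and are not replicates.

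Around the called features, other listed features mostly lay on the same side of 0. Of 17 genes with a called feature, 16 had other features in the gene or within 10 kb. The median of those had the sign of the called feature in 15, another call in the same direction stood in 10, and a call in the opposite direction in 0. The same counts were not made around called features of the whole table, so they do not set the exon features apart. The single other feature of Gm30302 was the one median of opposite sign, at 0.30. Hdac9 had 96 others, with 44 higher and 0 lower.

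Of the 4 same-strand features listed within 10 kb downstream of the Hcn4 end, 3 were higher. The next feature on the same strand (MSTRG.85258), 295 bases further on, had a log2 ratio of 3.07 in the authors' deposited table (adjusted p = 6.3e-05). Beyond it, MSTRG.85262 had 0.527 CPM in FOG2_OE and 0.00868 CPM in WT, where the WT value is under the limit of 3 counts. Downstream of Sln, MSTRG.84940 had 1.85 CPM in FOG2_OE and 4.12 CPM in WT, and MSTRG.84942 had 0.861 CPM in FOG2_OE and 2.46 CPM in WT (adjusted p = 0.033 and 0.012 in the authors' deposited table). Downstream of Gpc1, MSTRG.3008 had a log2 ratio of -2.00 in the authors' deposited table, close to the -2.07 of the exon feature.

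**Figure D4:**
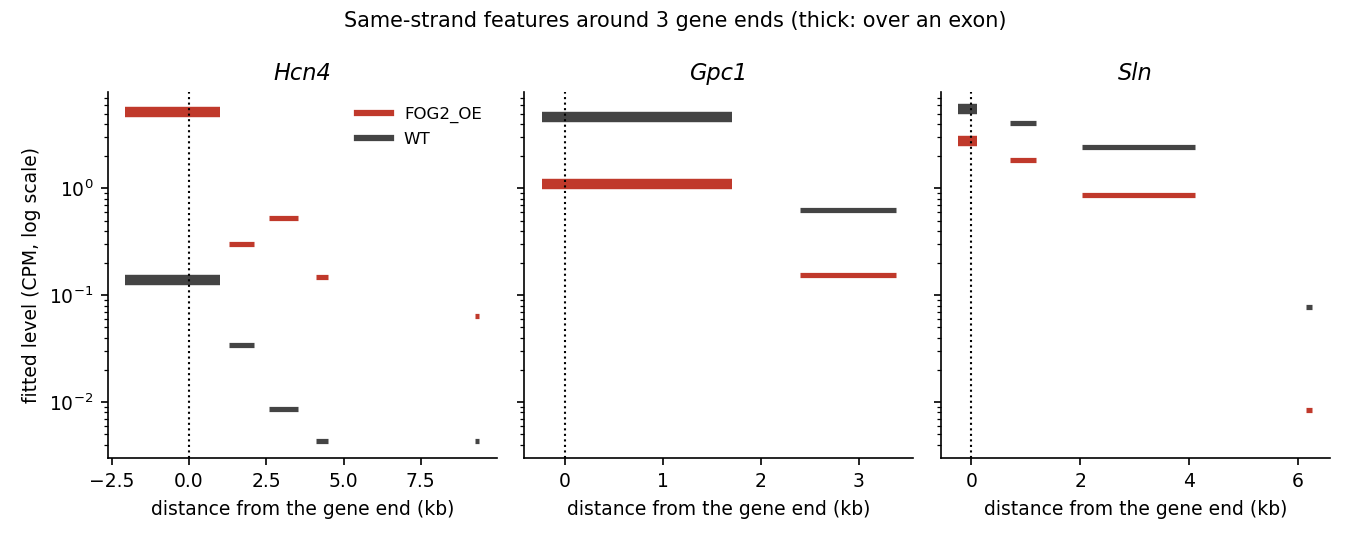
Level in CPM (log axis) of features on the strand of the gene around the ends of Hcn4, Gpc1 and Sln, by distance from the annotated gene end in kb, for FOG2_OE and WT. Thick lines mark the feature over an exon. FOG2_OE lies above WT along Hcn4 and below it along Gpc1 and Sln.

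Over all 674 features, 333 had another feature on the same strand within 10 kb downstream that covered no coding exon. In 229 of these (68.8%) both log2 ratios had the same sign, with a Pearson r of 0.46 and a Spearman rho of 0.41 across pairs. The pairs share libraries, and features of 1 gene often share the same neighbour, as those of BC004004 do, so they are not independent. Over 21598 pairs of neighbouring features in the whole table, chosen by strand and distance alone, the share was 68.3% and r was 0.57, so the exon features are not set apart by it. For the 12 called features with such a neighbour, the sign was the same in 12, and the neighbour was itself called in 7 (the called Adh6b features share 1 neighbour). Among 1381 called features of the whole table with a neighbour chosen by strand and distance alone, the sign was shared by 96.7%, and the neighbour was also called in that direction for 55.7%, so these counts do not set the exon features apart either.

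**Figure D5:**
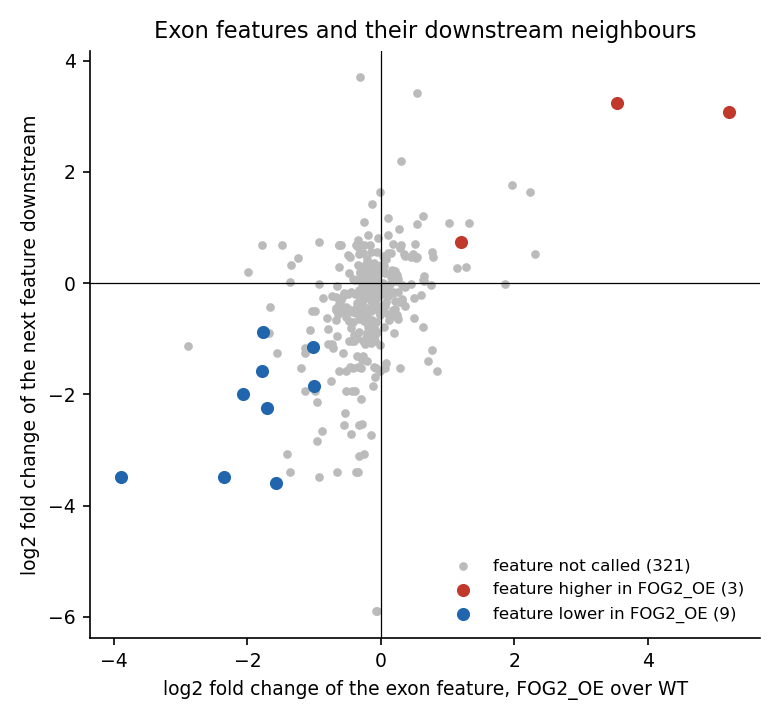
Log2 ratio of the next feature downstream against that of the exon feature (FOG2_OE over WT), 1 point for each of 333 pairs. Called exon features lie in the lower left and upper right of the plot.

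The calls rest on a test that takes each dispersion as known. When the same likelihood ratios were read against an F distribution that leaves 10 degrees of freedom, Hcn4 (adjusted p = 2.0e-03) and Gpc1 (0.031) stayed called and the other 16 did not, and with 4 degrees of freedom 0 stayed called (unadjusted, 9 were higher and 13 lower at p under 0.05). Simulated data for all 34518 features held 200 changed ones, all of at least 20 expected counts per library. There the likelihood ratio test found 11% of the 2-fold and 65% of the 4-fold changes at an adjusted p under 0.05. The authors' deposited table holds 2007 calls, and adjustment is stricter when fewer features change. These shares are therefore not the sensitivity of the test used here. The rates for the 674 features themselves were not simulated.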

How the data were processed

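Per the labels' protocols, the 6 libraries (3 FOG2_OE, 3 WT) were made from left atrial RNA depleted of ribosomal and polyadenylated RNA. Version 2 of the TruSeq RNA kit was used, which as such keeps no strand. The authors list a strand for each feature, and whether strand was kept was not tested. Per the submitters' processing notes, mm10, STAR, HTSeq 0.6.0, edgeR and deepTools were used, in roles not given in the sources used here. The authors' deposited table gives log2 fold changes and log2 CPM, a likelihood ratio score, p-values and adjusted p-values, and 6 sample columns of signal, which are fitted values of the authors' model (largest relative spread within a group 1.8e-14). They are not counts, so the planned edgeR quasi-likelihood fit could not be run and the authors' test is the main result. Labels do not say that replicates share a litter or day, nor that they came from separate animals, so p-values refer to these libraries. These p-values use the dispersions of the authors' model. A feature's own spread between libraries cannot be had from the fitted values.

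Computed here were effective library sizes (from 718 features above 300 fitted counts), CPM, and the negative binomial dispersion at which fitted values give the deposited likelihood ratio (of at least 0.1, otherwise from features of like abundance), which gives the SE. For FOG2_OE against WT, 34518 features were simulated with 200 changed. The median dispersion error was 0.297% over the 26158 features with a likelihood ratio of at least 0.1. Intervals covered 93.2% among those that also had at least 20 expected counts per library. Coverage was not measured for scarcer features, and 240 of the 674 lay under 20 fitted counts. Simulated tests were given the true dispersions. Exons came from GENCODE M21 (GRCm38, the same build as mm10), and TEC genes counted as long noncoding. Table starts count from 0 and are printed from 1. Features named were the called ones, the 12 most abundant, members of the 14 gene lists, and the genes with the most features. The members and lists were chosen with earlier results of these data known. Alternatives were the scale between groups, the F reference, an abundance filter, and narrower or wider membership. Tools were Python 3.11.15, numpy 2.4.6, scipy 1.17.1, pandas 2.3.3, matplotlib 3.10.9 and bedtools 2.31.1.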

Additional observations from a re-analysis of the deposited data

How the results depend on the processing

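The 8 higher and 10 lower calls depended most on the reference distribution: an F reference at 10 degrees of freedom left 1 higher and 1 lower (17 and 32 at an unadjusted p under 0.05), and with 4 degrees of freedom 0 and 0 (9 and 13 unadjusted, smallest adjusted p 0.583). Keeping only features with at least 50% of the span over exons gave 5 higher and 3 lower of 340. These were 1.47% and 0.882%, beside 0.898% and 2.10% of the 334 features under 50%, and the difference was not tested. With the median ratio centred at 1 the calls were 11 and 7, with all 8 higher and 7 of the 10 lower shared. Cebpd, Eva1b and Mmp23 were added, while Rftn1 (adjusted p = 0.136), Sln (0.159) and 1 Adh6b feature (0.0821) were lost, and the median log2 fold change was 0.09. Adjustment over features of at least 20 fitted counts gave 7 and 8, leaving out features with an exon on the opposite strand 8 and 9, leaving out same-strand pseudogene exons 8 and 10, and 1 feature per gene 8 and 8. After seeing the data, 2 alternatives were added: not counting TEC genes as long noncoding gave 8 and 10, and asking for 20 exon bases gave 7 and 10, without Cpne5. No paired analysis was possible because the sample columns hold fitted values that differ between replicates only by library size. For the same reason leaving out replicates, DESeq2 and the edgeR quasi-likelihood fit were not run. Depth limits scarce features: the median SE of the 674 was 0.42.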

Other observations

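The features were unevenly spread over chromosomes. Chromosome 10 held 84 of them (12.5%, against 4.65% of protein-coding genes), chromosome 13 held 66 (9.79% against 3.82%), and chromosome 17 held 55 (8.16% against 4.81%). Chromosome 1 held 18 (2.67% against 5.51%) and chromosome 11 held 17 (2.52% against 7.47%). Features wholly within exons numbered 47 on chromosome 10 and 36 on chromosome 13, but 0 on chromosome 1 and 1 on chromosome 11. On chromosome 10, 18 of the features belonged to D10Wsu102e, and 47 genes there had a feature (8.80% of the 534). How the authors drew up the list of features is not given in the sources used here, and its part in this spread was not tested.

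On the opposite strand, 41 of the 674 features overlapped another listed feature, 7 of them over at least 50% of the span. The log2 fold changes had the same sign in 18 of 41 pairs, with a Pearson r of 0.20 and a Spearman rho of 0.02. The features of Tbrg1 and Siae overlap each other and enter from both sides, and those of Adrb1 share a partner, MSTRG.44184.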
